A study of Mus musculus with 3 samples.

Results

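A set of 10 chaperone genes of the heat shock families was followed across the cell types of mouse blood: Hspa1a, Hspa1b, Hspa8, Hspa5, Hsp90aa1, Hsp90ab1, Hsph1, Dnajb1, Hspe1 and Hspd1. They were taken by symbol from the gene list of the matrices, as 10 of 32285 genes, and all 10 had at least 1 unique molecular identifier (UMI, a tag that marks a single captured transcript) in each library. Peripheral blood mononuclear cells (PBMCs) of young (8 weeks), aged (16 months) and aged-GA mice (16 months, given glycyrrhizic acid, a saponin of licorice root, for 1 month) were sequenced on the 10x droplet platform, with 1 library per group. Per the study's methods the mice were female C57BL/6, and glycyrrhizic acid was injected into the tail vein every other day. The young and aged mice are labelled as untreated, although the methods describe saline injections for controls. Per the study, blood of several mice was collected in each group, and no label ties a barcode to a mouse, so each library was counted as 1 sample.

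Chaperones bind unfolded protein chains and help them to fold, to be moved or to be handed over for degradation. Hsp70 proteins (Hspa genes) bind short greasy stretches of a chain and work with Hsp40 partners such as Dnajb1, which deliver clients, and Hsp110 proteins such as Hsph1, which exchange the bound nucleotide. Hsp90 proteins act later, on signalling kinases and receptors that are nearly folded. Hspa1a and Hspa1b are the forms that heat shock factor 1 (HSF1) switches on under stress, Hspa8 is the constitutive form, Hspa5 (BiP) serves the endoplasmic reticulum (ER), where secreted proteins such as antibodies fold, and Hspd1 with its lid Hspe1 forms the chaperonin of mitochondria. Cells also raise the inducible genes when they are warmed, sheared or starved during isolation.

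The regulatory sequences of these genes differ, and 3 promoter stretches are shown because they carry the elements by which the inducible, the mitochondrial and the ER chaperones are known. RefSeq promoter windows on GRCm38.p6, from 250 bases before the start to just after it, were given for 7 of the 10 chaperones. Capitals mark the letters matched to a heat shock element (GAANNTTC or TTCNNGAA, searched on both strands) in Hspa1b and Hspe1, and to an ER stress response element (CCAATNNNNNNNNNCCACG, both strands) in Hspa5. The stretches lie at chr17:34959239-34959388 on the minus strand, chr1:55087998-55088147 on the plus strand and chr2:34771940-34772089 on the plus strand.
Hspa1b: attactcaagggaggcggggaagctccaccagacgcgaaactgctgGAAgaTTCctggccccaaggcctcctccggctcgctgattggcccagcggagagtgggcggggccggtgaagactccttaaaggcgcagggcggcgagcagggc
Hspe1: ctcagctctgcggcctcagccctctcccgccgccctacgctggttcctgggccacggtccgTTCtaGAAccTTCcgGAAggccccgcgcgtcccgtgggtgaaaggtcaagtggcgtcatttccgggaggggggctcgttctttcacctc
Hspa5: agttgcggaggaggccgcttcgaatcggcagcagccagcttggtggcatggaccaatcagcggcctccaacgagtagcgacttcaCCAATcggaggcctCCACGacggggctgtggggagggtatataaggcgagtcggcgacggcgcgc

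Hspa1a and Hspa1b are near copies, with starts 12918 bases apart on chromosome 17, and 247 of the 250 bases before their starts were the same. Each carried GAANNTTC at -104 to -97 from the start. Hspe1 and Hspd1 lie on opposite strands of chromosome 1, with the Hspe1 start 95 and 216 bases from the 2 Hspd1 starts. The Hspd1 start 216 bases away faces away from Hspe1, and the one 95 bases away lies within Hspe1, so that transcripts from it overlap Hspe1 on the other strand. Overlapping repeats lay at -89 to -72 of the Hspe1 start, which is -144 to -127 of the Hspd1 start 216 bases away. In Hsph1 the 3-unit element GAANNTTCNNGAA lay after both of its starts, 36 to 48 bases from 1 and 15 to 27 from the other, and none was found in the Dnajb1 window. A 2-unit element was found in 5 of the 7 chaperones, against 17.0% of the 27025 genes in the promoter table, and a 3-unit element in 3 of 7 (Hsph1, Hspe1 and Hspd1), against 0.662%. The ER element lay at -65 to -47 in Hspa5 and was found in 0.137% of genes. Among 19 other genes of ER chaperones and the unfolded protein response in the table, 8 held it (Hsp90b1, Calr, Canx, Pdia6, Dnajc3, Creld2, Syvn1 and Derl3) and none held a heat shock element.

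The libraries differed in ways that touch the values below. After the filters 8851 young, 10238 aged and 12648 aged-GA cells remained, with a median of 4671, 3810 and 4752 UMIs per cell, and the median mitochondrial share of UMIs was 5.05%, 2.84% and 4.22%. The libraries shared 50 to 62 cell barcodes by pair. Although the label is PBMC, red cells and neutrophils were present, and 941, 5460 and 3812 barcodes with under 200 genes held a median of 95.01%, 96.1% and 95.4% haemoglobin UMIs. Cells were assigned to types with marker genes that include none of the 10 chaperones: 2243, 3921 and 5218 B cells, 1023, 544 and 747 CD4 T cells, 2000, 830 and 1661 CD8 T cells and 322, 251 and 257 NK cells in the young, aged and aged-GA libraries. Young blood held 12 neutrophils, 51 monocytes, 1 plasma cell and 0 basophils, and neutrophils, monocytes and plasma cells were compared only in the older libraries. The young monocytes just passed the minimum of 50 cells, but monocytes were not among the types chosen for the age comparison. Basophils were described in the aged library alone, because the aged-GA library held 29, under the minimum of 50 cells. With 1 library per group no test was possible. Levels are given in CPM (counts of a gene over all UMIs of the gated cells, times 1e+06), with exact 95% Poisson intervals, or exact binomial intervals for shares of cells, that cover counting error only.

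Across blood cell types the chaperones did not share a single order of levels. In the young library the highest and lowest of B, CD4 T, CD8 T and NK cells differed by 1.34-fold for Hsp90ab1, 1.58-fold for Hspa5, 1.79-fold for Dnajb1, 2.03-fold for Hspd1 and 2.04-fold for Hsph1, and by 2.73-fold for the scarce Hspa1b. In the aged library, where myeloid and plasma cells could be measured, the highest and lowest types differed, erythroid cells apart, by 2.68-fold for Hsp90aa1, 5.36-fold for Hspa5, 5.73-fold for Hspa8, 7.67-fold for Hsp90ab1 and 18.0-fold for Hspe1. The plot of levels by cell type shows Hspa5 standing out in plasma cells, Dnajb1 in basophils and neutrophils as the lowest type for most members once erythroid cells, which are left out of the orders given here, are set aside.

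**Figure D1:**
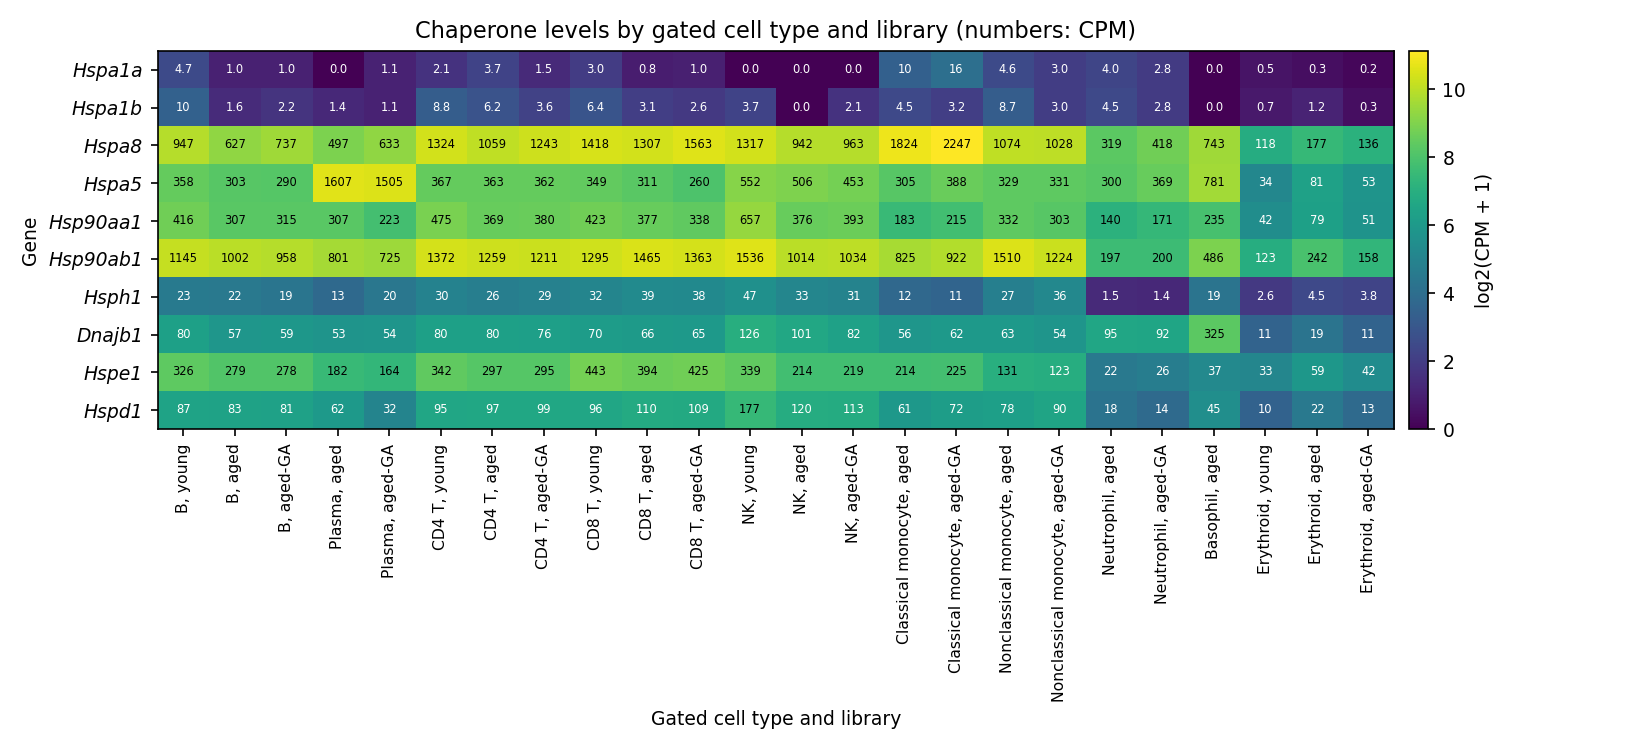
Levels of the 10 chaperones (rows) in each gated cell type and library with at least 50 cells (columns), coloured by log2(CPM + 1) and with the CPM printed in each cell. Hspa5 reached 1607 and 1505 CPM in plasma cells, and Hspe1 21.8 and 25.6 CPM in neutrophils.

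Hspa8, which also uncoats clathrin vesicles, was highest in classical monocytes, at 1824 CPM in the aged and 2247 CPM in the aged-GA library. In the aged library CD8 T cells followed at 1307 CPM, nonclassical monocytes at 1074, CD4 T cells at 1059, NK cells at 942, basophils at 743, B cells at 627, plasma cells at 497 and neutrophils at 319 CPM. Only the intervals of nonclassical monocytes and CD4 T cells overlapped between neighbours in that order. Hspa8 was also the only member with a transcript end shared with other genes. Of the 411 stretches of 90 bases in the last 500 bases of its longest annotated transcript, 101 occur in other genes as well. Those genes are the pseudogenes Gm15459 and Gm8355, and Snord14e. None of the stretches of the other 9 members is shared, Hspa1a and Hspa1b included. The Hspa8 counts may thus be less certain, but whether its captured transcripts end there was not tested.

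Hspa5 was highest in plasma cells, the antibody-secreting descendants of B cells. In plasma cells its level was 1607 CPM in the aged and 1505 CPM in the aged-GA library, against 303 and 290 CPM in B cells of the same libraries. Basophils followed in the aged library at 780.5 CPM and NK cells at 506 CPM, and the other 6 types lay between 300 and 363 CPM with intervals that overlapped from each to the next. Immunoglobulin genes took 24.8% and 25.4% of the UMIs of plasma cells, and without them Hspa5 was at 2136 and 2016 CPM.

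Dnajb1 reached 325 CPM (interval 260 to 401, 87 UMIs) in the 106 aged basophils, against 101 CPM in NK cells, the next type of the aged library. Those 87 UMIs lay in 32 of the basophils, with at most 7 in 1 cell, and no other library had enough basophils to compare. The same basophils had 37.3 CPM of Hspe1 and 44.8 CPM of Hspd1, which rest on 10 and 12 UMIs. Of the cytosolic Hsp90 genes, Hsp90ab1, the constitutive form, was at 1510 CPM in nonclassical monocytes and 1465 CPM in CD8 T cells of the aged library, whose intervals overlapped. Hsp90aa1, the form that stress raises further, was at 183 and 332 CPM in classical and nonclassical monocytes of that library.

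Over the 21 sums of cells formed by cell type and library, log2(CPM + 1) of Hsp90ab1 went with that of Hsph1 (Pearson's r = 0.93), Hspd1 (0.93) and Hspe1 (0.90), and Hspe1 with Hspd1 (0.85). Hspa5 went with none of these, at -0.13 with Hsp90ab1 and -0.15 with Hspe1. Among 7142 other genes, those most like Hspa5 were Creld2 (0.90), Sec11c (0.89), Selenok (0.89), Sub1 (0.87) and Hsp90b1 (0.87). Those most like Hspa8 were Igbp1, Txn2, Ssbp4, Acaa2 and H2afy, between 0.88 and 0.90, and those most like Hspa1a were Irf9, Slfn5, Dhx58, Tor1a and Soat1, between 0.80 and 0.86. Hspa1a reached at most 15.95 CPM in these sums and had 0 UMIs in NK cells of each library. The genes named for it therefore rest on few counts. The 21 sums share libraries and related cell types, so these values only describe them.

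To see how far plasma cells stood apart, they were set against B cells of the same library, a comparison added after values were seen. Of 8 members with at least 100 UMIs over both types, 1 was past 1.5-fold higher in plasma cells in each library, Hspa5, where 10.3% of all genes counted in the aged and 8.6% in the aged-GA library were. The Hspa5 log2 ratio was 2.40 (interval from 2.31) and 2.37 (2.29 to 2.46), which is 5.30-fold and 5.19-fold. The median over all genes was -0.69 in the aged library and -0.58 in the aged-GA library, and relative to it Hspa5 was 3.09 and 2.95 higher. In the aged library B cells held 13504782 UMIs and plasma cells 704465, so a gene could be counted through B cells alone. The shares and medians over all genes therefore rest more on genes found in B cells. In CPM the mitochondrial pair lay on the other side of 0: Hspe1 at -0.62 and -0.76, and Hspd1 at -0.41 and -1.31. Relative to the median over all genes Hspe1 was at 0.07 in the aged and -0.18 in the aged-GA library, and Hspd1 at 0.28 and -0.73, so the direction of both in the aged library depends on the scaling. Hsp90aa1 was at 0.00 in the aged and -0.50 in the aged-GA library. The aged values of these 3 genes rest in good part on single plasma cells: 1 cell held 96 of the 216 Hsp90aa1 UMIs, 1 held 20 of the 44 Hspd1 UMIs and 1 held 33 of the 128 Hspe1 UMIs. Of Hspa5, 1 cell held 120 of the 1132 UMIs in the aged library and 1 held 157 of the 1413 in the aged-GA library. The intervals do not cover such differences between cells.

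The other ER genes went with Hspa5. Of 21 listed ER chaperone and unfolded protein response genes with enough UMIs, 20 in the aged and 18 in the aged-GA library were past 1.5-fold higher in plasma cells, with median log2 ratios of 2.36 and 2.27. Derl3, part of the machinery that removes misfolded ER proteins, was at 355 CPM against 1.19 CPM in B cells of the aged library. Derl3 and another of the listed genes were also markers, outside the gate, by which the plasma cell label was checked. Sdf2l1, a partner of ER Hsp40 proteins, had a log2 ratio of 4.37 and Creld2 of 4.30, and Hsp90b1 (GRP94), the Hsp90 of the ER, was at 5425 against 344 CPM. In that library 0 of 25 HSF1-related cytosolic genes and 0 of 8 genes of the cytosolic chaperonin TRiC were past 1.5-fold higher, and their median log2 ratios of -0.43 and -0.24 lay above the -0.69 of all genes. After thinning each cell to 500 UMIs, Hspa5 was found in 36.0% of the 50 aged plasma cells (22.9% to 50.8%) and in 12.7% of aged B cells, against 0.110% of aged red cell barcodes. In the aged-GA library the shares were 25.8% (15.8% to 38.0%) of 66 plasma cells, 13.5% of B cells and 0.210% of red cell barcodes. Most UMIs of the red cell barcodes were haemoglobin, so their low shares do not give the level of free RNA. Without thinning 45 of the 50 aged plasma cells and 58.4% of aged B cells held Hspa5. In the aged library the median depth was 15514 UMIs in those plasma cells, 3048 in the B cells and 4955 in the red cell barcodes before thinning.

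**Figure D2:**
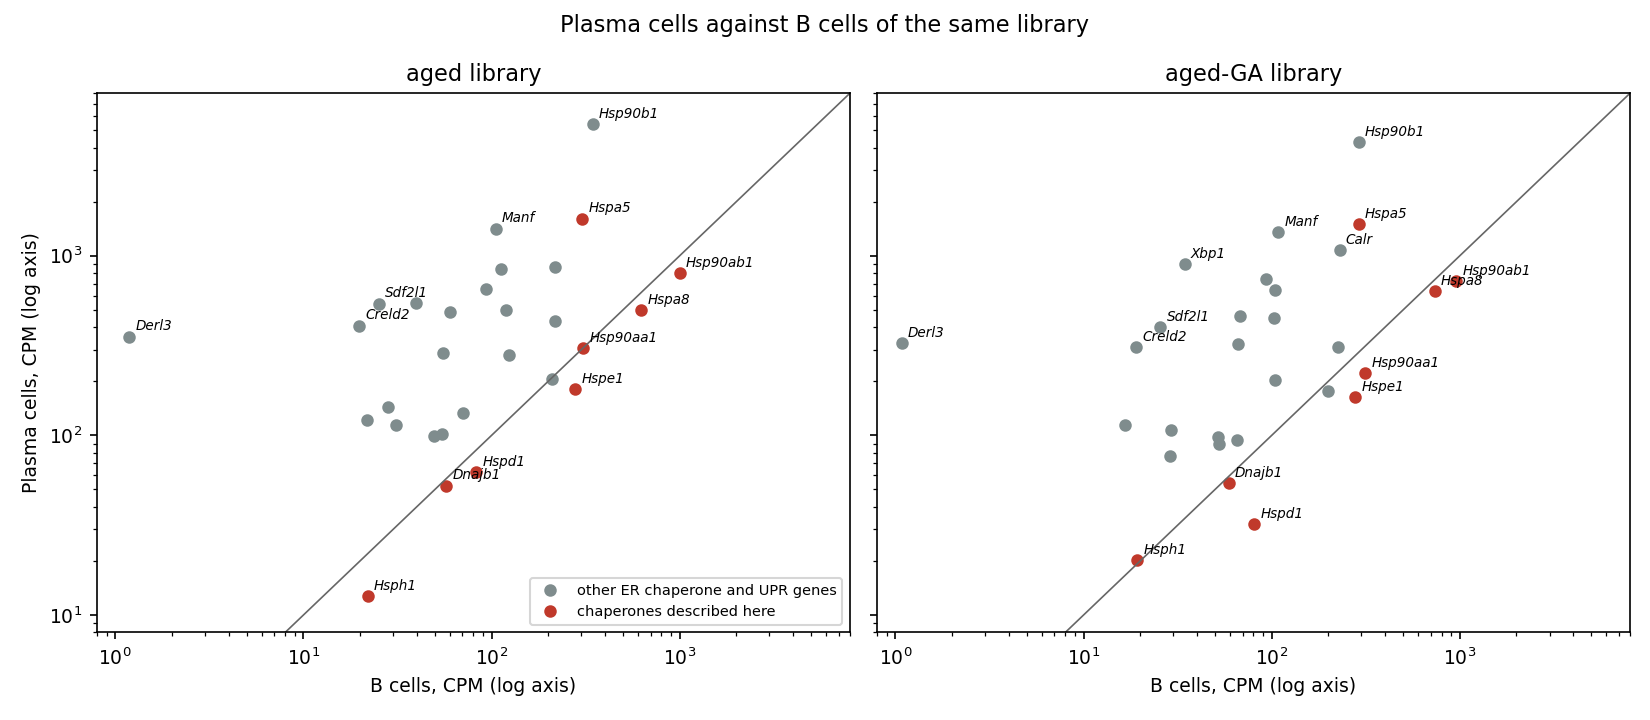
CPM in plasma cells (y axis) against B cells (x axis) of the same library, both on log axes, for the chaperones described here (red) and the other ER chaperone and unfolded protein response genes (grey); the line marks equal levels. Hspa5 lies with the grey ER genes, 5.30-fold and 5.19-fold above the B cell level, and the cytosolic and mitochondrial chaperones lie near or under the line.

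Neutrophils, set against B cells in the same way, had low levels of most chaperones. The 10 genes together made up 0.110% of neutrophil UMIs in the aged library, against 0.268% in B cells and 0.407% in CD8 T cells. Of the 8 members counted, 6 were past 1.5-fold lower in each library, where 62.9% (aged) and 59.4% (aged-GA) of all genes were lower too, so the count lies near that of genes at large. Hspe1 stood at 21.8 against 279 CPM and Hspd1 at 17.9 against 83.2 CPM in the aged library. Their log2 ratios were -3.62 and -2.16, or -2.51 and -1.05 relative to the median over all genes of -1.11. Hsph1 was at 1.49 CPM in aged neutrophils, which rests on 3 UMIs, against 21.9 CPM in B cells (ratio 0.0679, interval 0.0139 to 0.200). It was counted through its 296 UMIs in B cells.

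A pair of members was not past the fold lower in neutrophils, Dnajb1 and Hspa5. Dnajb1 was at 94.8 and 91.8 CPM in neutrophils against 57.5 and 59.0 CPM in B cells, a log2 ratio of 0.71 in the aged and 0.63 in the aged-GA library. Hspa5 was level in the aged library (-0.02) and at 0.34 in the aged-GA library. Hspa8 was lower in CPM, at -0.97 and -0.82, but 0.13 and 0.14 higher relative to the median over all genes. Of Hsp90aa1 the values were -1.12 and -0.88, and -0.01 and 0.08 relative to that median. S100a8 and S100a9 alone took 21.7% of the UMIs of aged neutrophils. Of the listed genes, all 8 TRiC genes and all 8 other mitochondrial chaperone genes were past 1.5-fold lower in the aged library, where 62.9% of all genes counted were. B cells of that library held 13504782 UMIs and neutrophils 2015764, so a gene could be counted through B cells alone. Tcp1 had 12 UMIs in neutrophils and 1195 in B cells, and Lonp1 5 and 271. The counts of lower genes therefore rest in good part on genes found in B cells. Hspa4l, a relative of Hsph1, was at 189 CPM against 10.4 CPM in B cells.

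The inducible pair Hspa1a and Hspa1b was scarce. In young B cells Hspa1b had 86 UMIs (10.1 CPM, 8.05 to 12.4) and Hspa1a 40 UMIs (4.68 CPM). In aged B cells, which were more numerous, Hspa1b had 21 UMIs (1.56 CPM) and Hspa1a 14 (1.04 CPM), and in aged-GA B cells 48 (2.16 CPM) and 23 (1.04 CPM). Summed, the pair stood at 14.8 CPM (12.3 to 17.6) in the young, 2.59 (1.81 to 3.60) in aged and 3.20 (up to 4.03) in aged-GA B cells. The young interval overlapped neither of the others. The UMIs in young B cells were spread: 89 cells held 1, 17 held 2 and 1 held 3.

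In CD8 T cells the summed pair stood at 9.34 CPM (7.72 to 11.2) in the young library, 3.98 (2.40 to 6.21) in the aged and 3.57 (2.58 to 4.81) in the aged-GA library. In CD4 T cells the values were 10.9, 9.99 and 5.15 CPM, but a single aged CD4 T cell held 10 of the 24 UMIs, so the aged value rests largely on it. A single aged-GA CD8 T cell held 13 of 43. NK cells held 4, 0 and 2 UMIs of Hspa1b and none of Hspa1a in any library, and 0 counts in the aged NK cells allow a level of up to 3.42 CPM by the limit of 3 counts, or 4.205 CPM by the exact interval. Monocytes held 14.7 and 15.4 CPM of the pair in the aged and aged-GA libraries, and 8 UMIs in the 51 young monocytes (32.2 CPM, 13.9 to 63.5). In classical monocytes of the aged library Hspa1a stood at 9.78 CPM and Hspa1b at 4.53 CPM (41 and 19 UMIs), with intervals that just overlapped.

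**Figure D3:**
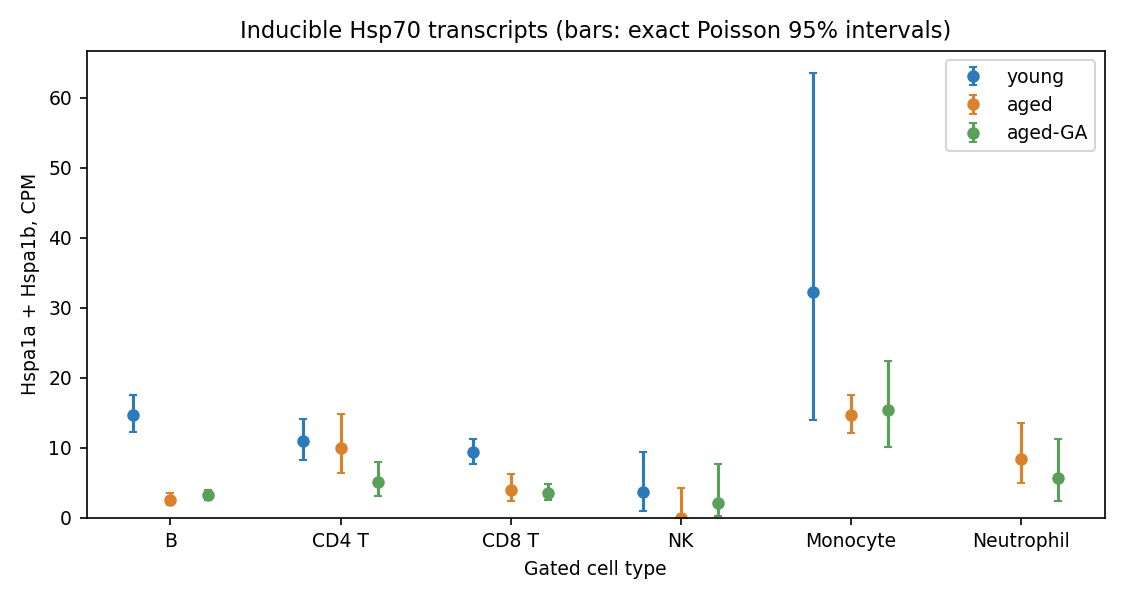
Summed CPM of Hspa1a and Hspa1b (y axis) by gated cell type and library, with exact 95% Poisson intervals as bars; types with under 50 cells in a library are left out. In B cells the young library lies at 14.8 CPM, above the aged at 2.59 and the aged-GA at 3.20 CPM.

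The effect of age was asked of B, CD4 T, CD8 T and NK cells, by the ratio of the aged to the young library. All genes counted shifted first: their median log2 ratio was 0.28 in B, 0.35 in CD4 T, 0.31 in CD8 T and 0.04 in NK cells. The members were therefore also set against that median, and some of their ratios are given relative to it. The shift was smaller among abundant genes, at -0.04, 0.14, 0.04 and -0.10 for genes of 300 to 2000 CPM. Relative to the median every member counted was lower in the aged library: 9 of 9 in B, 8 of 8 in CD4 T, 8 of 8 in CD8 T and 7 of 7 in NK cells. A median has as many genes below it as above. In CD8 T cells Hsp90ab1, Hspd1 and Hsph1 lay close to it, with 37.09%, 39.15% and 44.2% of all genes lower still. Hsp90ab1 there, at 0.18, lay above the 0.04 of genes of 300 to 2000 CPM. A member was counted with at least 100 UMIs over both libraries, which left out Hspa1a everywhere, Hspa1b outside B cells and Hsph1 in NK cells.

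In B cells Hspa8 stood at 947 CPM (927 to 968) in young, 627 (613 to 640) in aged and 737 (726 to 748) in aged-GA mice, and no interval overlapped another. Its aged over young log2 ratio was -0.60 (-0.64 to -0.55), and -0.88 relative to the median over all genes. Hspa1b had -2.12, against an interval without the pseudocount of -3.46 to -1.99. These 2 of 9 members were past 1.5-fold lower, where 2.29% of all genes counted were, and 0 of 9 were higher, where 23.1% were. Hspa1b was counted mostly through its young UMIs, with 86 young and 21 aged UMIs, just past the UMI minimum. Hspa1a, at -1.48 with 40 young and 14 aged UMIs, fell under that minimum and was left out. The count of 2 thus rests in part on a gene counted mostly through the library where it was high. Hspa8 sits close to 1.5-fold, at 1.51-fold, and relative to genes of 300 to 2000 CPM (median -0.04) it was not past it.

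The other members were lower by less in aged B cells. Hsp90aa1 stood at 416, 307 and 315 CPM in young, aged and aged-GA cells, with a log2 ratio of -0.44 (-0.50 to -0.37), and Dnajb1 at 80.1, 57.5 and 59.0 CPM, with -0.47 (-0.63 to -0.33). Relative to the median over all genes they were at -0.72 and -0.75, past the fold, which makes 4 of 9. Of all genes counted 3.99% and 3.33% lay lower still, and the share past the fold on that scale was not counted. Relative to genes of 300 to 2000 CPM (median -0.04) Hsp90aa1 was not past the fold. Dnajb1 was, relative to genes of 30 to 100 CPM (median 0.26). Hspa5 (-0.24), Hspe1 (-0.22) and Hsp90ab1 (-0.19) were lower with intervals under 0, and those of Hspd1 and Hsph1 (both -0.07) held 0. With cells of 2500 to 7500 UMIs only, Hspa8 had -0.58 and no member was past the fold, Hspa1b having under 100 UMIs.

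Depth, mitochondrial share and RNA of other cells moved with the library, and their part in the B cell values was not tested. Among B cells with 2.5% to 5% mitochondrial UMIs in every library, the young library had 969 CPM of Hspa8, the aged 621 and the aged-GA 722 CPM, and Hspa1b stood at 10.4, 1.46 and 1.80 CPM. Thinned to 500 UMIs, 37.2% (35.2% to 39.2%) of young, 26.1% (24.8% to 27.5%) of aged and 29.5% (28.3% to 30.8%) of aged-GA B cells held Hspa8, against 0.425%, 0.769% and 1.495% of red cell barcodes. Haemoglobin made up most UMIs of the red cell barcodes, so few other UMIs were left after thinning. Their low shares therefore do not give the level of free RNA. Median depths were 3389, 3048 and 3742 UMIs in B cells and 8636, 4955 and 5387 in red cell barcodes, and without thinning 91.0%, 81.5% and 89.3% of B cells held Hspa8. The 8 neutrophil gate markers summed to 1.29, 43.8 and 28.7 CPM over the B cells of the libraries in that order, with 3, 8 and 8 of 8 detected (Csf3r, Mmp9, Mmp8, Stfa2l1 and Clec4d at 0 in young), and the 4 neutrophil markers outside the gate to 7.73, 574 and 253 CPM. The 4 haemoglobin genes summed to 1199, 8199 and 5976 CPM in the same cells.

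NK cells, added after values were seen, had the lowest median of the members. Hsp90aa1 stood at 657 CPM (609 to 707) in the young library, against 376 CPM (337 to 419) in the aged and 393 CPM (354 to 435) in the aged-GA one, a log2 ratio of -0.80 (-0.997 to -0.613) for aged over young. Hspe1 stood at 339, 214 and 219 CPM (-0.66, -0.92 to -0.40) and Hsp90ab1 at 1536, 1014 and 1034 CPM (-0.60, -0.72 to -0.48). These 3 of 7 members were past 1.5-fold lower, where 5.09% of all genes counted were, and 0 were higher, where 9.87% were. None was past 2-fold. Relative to the median over all genes Hsp90aa1 was at -0.85, Hspe1 at -0.70 and Hsp90ab1 at -0.64. Relative to genes of 300 to 2000 CPM (median -0.10) Hsp90aa1 was past the fold and Hsp90ab1 was not. The older libraries lay close together for all 3 genes and away from the young.

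Among the other members in NK cells Hspd1, the partner of Hspe1, had -0.56 (-0.92 to -0.22) and Hspa8 -0.48 (-0.61 to -0.36), while the intervals of Dnajb1 (-0.31) and Hspa5 (-0.13) held 0. The median over the 7 was -0.56, and -0.61 relative to the median over all genes. After thinning to 500 UMIs 29.5% (24.6% to 34.8%) of young, 17.5% (13.0% to 22.8%) of aged and 15.6% (11.4% to 20.6%) of aged-GA NK cells held Hsp90aa1, against 0.638%, 0.330% and 0.315% of red cell barcodes. The shares of these barcodes, whose UMIs were mostly haemoglobin, do not give the level of free RNA. Median depths of the NK cells were 3040, 3057 and 3368 UMIs, and without thinning 75.5%, 63.7% and 71.6% of them held Hsp90aa1. In the young, aged and aged-GA NK cells 3, 7 and 6 of the 8 neutrophil gate markers were detected, at a sum of 4.62, 41.0 and 21.1 CPM, and the T cell gate markers summed to 361, 398 and 408 CPM. The sums of haemoglobin were 1267, 8475 and 6359 CPM. Their part in these values was not tested.

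**Figure D4:**
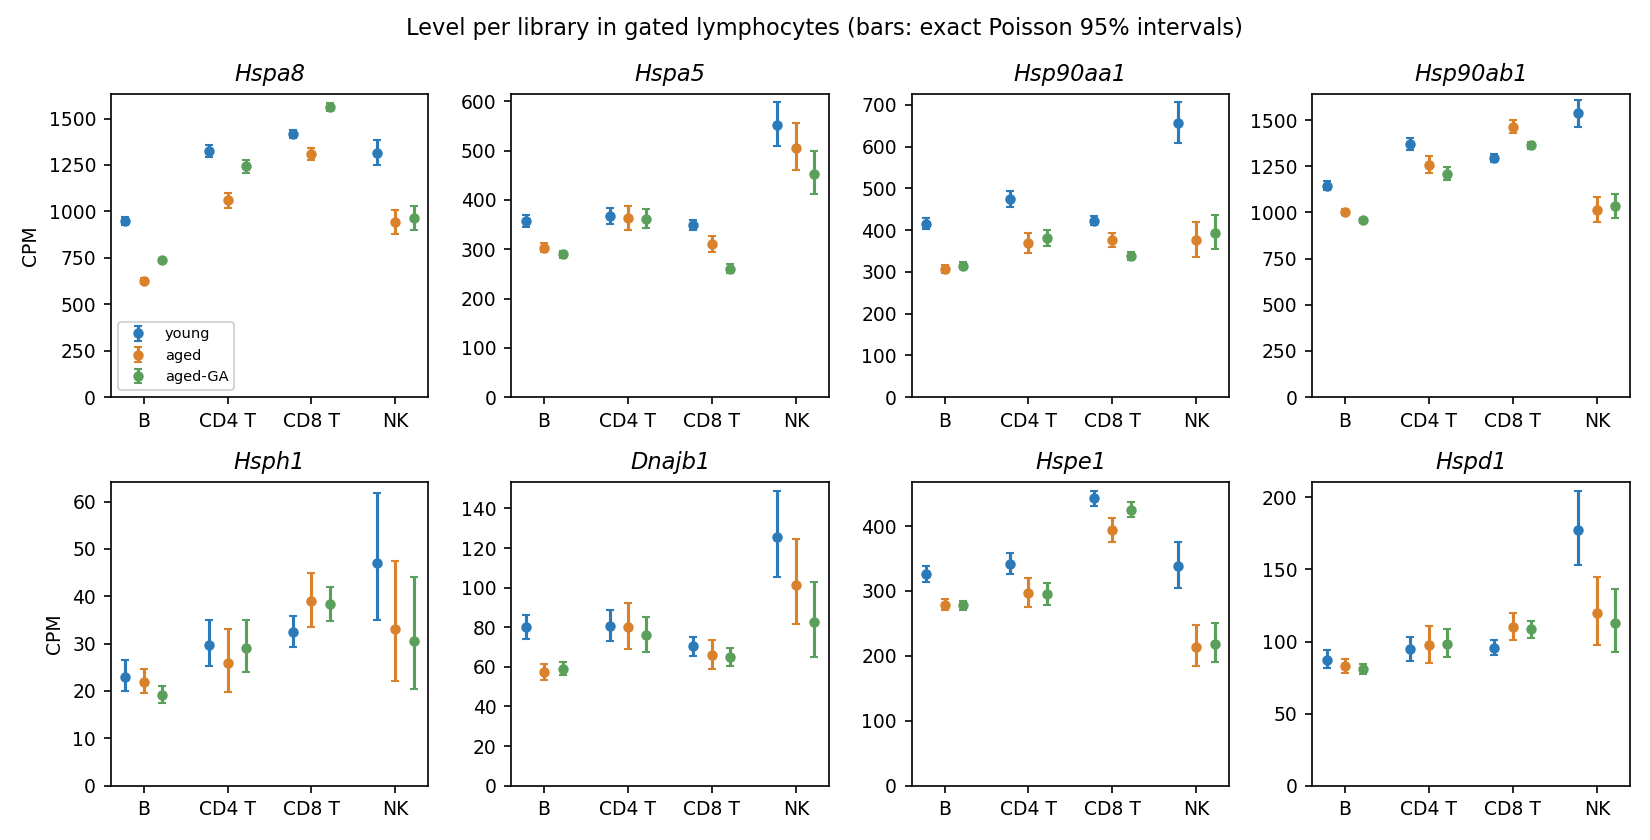
CPM (y axes, from 0) of 8 chaperones in gated B, CD4 T, CD8 T and NK cells (x axes) of the young, aged and aged-GA libraries, with exact 95% Poisson intervals as bars. Hspa8 in B cells lies at 3 separate levels (947, 627 and 737 CPM), and Hsp90aa1 and Hspe1 in NK cells separate the young library from both older ones.

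In CPM the T cells differed less. Relative to the median over all genes the medians over the members were -0.51 in CD4 T, -0.42 in CD8 T, -0.52 in B and -0.61 in NK cells. In CD4 T cells 0 of 8 members were past 1.5-fold, where 3.28% of all genes were lower and 29.4% higher by that much. Hspa8 stood at 1324, 1059 and 1243 CPM and Hsp90aa1 at 475, 369 and 380 CPM in the young, aged and aged-GA libraries, with aged over young log2 ratios of -0.32 (-0.39 to -0.26) and -0.36 (-0.48 to -0.25). Relative to the median over all genes these were -0.67 and -0.71, past the fold. Of all genes counted 7.75% and 6.79% lay lower still. Relative to genes of 300 to 2000 CPM (median 0.14) neither was past the fold. Hspa5 was level, at 367, 363 and 362 CPM. Ribosomal protein genes took 39.2% of UMIs in young and 31.1% in aged CD4 T cells, and scaled without them, haemoglobin and mitochondrial genes the median over the 8 members was -0.39 in place of -0.16.

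In CD8 T cells 0 of 8 members were past 1.5-fold, where 2.7% of all genes were lower and 25.2% higher. Hsp90ab1 stood at 1295, 1465 and 1363 CPM, with an aged over young log2 ratio of 0.18 (0.14 to 0.22), which turned to -0.14 relative to the median over all genes. Hspd1 (0.20) and Hsph1 (0.26) turned in the same way, to -0.11 and -0.06. Hspa8 was at 1418, 1307 and 1563 CPM, Hspe1 at 442, 394 and 425 CPM, and Hspa5 at 349, 311 and 260 CPM, the last a series of separate intervals.

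Naive and memory T cells made up different parts of each library, with 1474, 260 and 489 naive and 71, 282 and 399 memory CD8 T cells. Within naive CD8 T cells Hspa8 stood at 1405, 1323 and 1577 CPM and Hspa5 at 358, 309 and 264 CPM, close to the values over all CD8 T cells. Within naive CD4 T cells (911, 231 and 318 cells) Hspa8 stood at 1335, 1077 and 1328 CPM and Hsp90aa1 at 482, 374 and 362 CPM. Memory CD8 T cells held Hspa8 at 1499, 1179 and 1471 CPM.

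**Figure D5:**
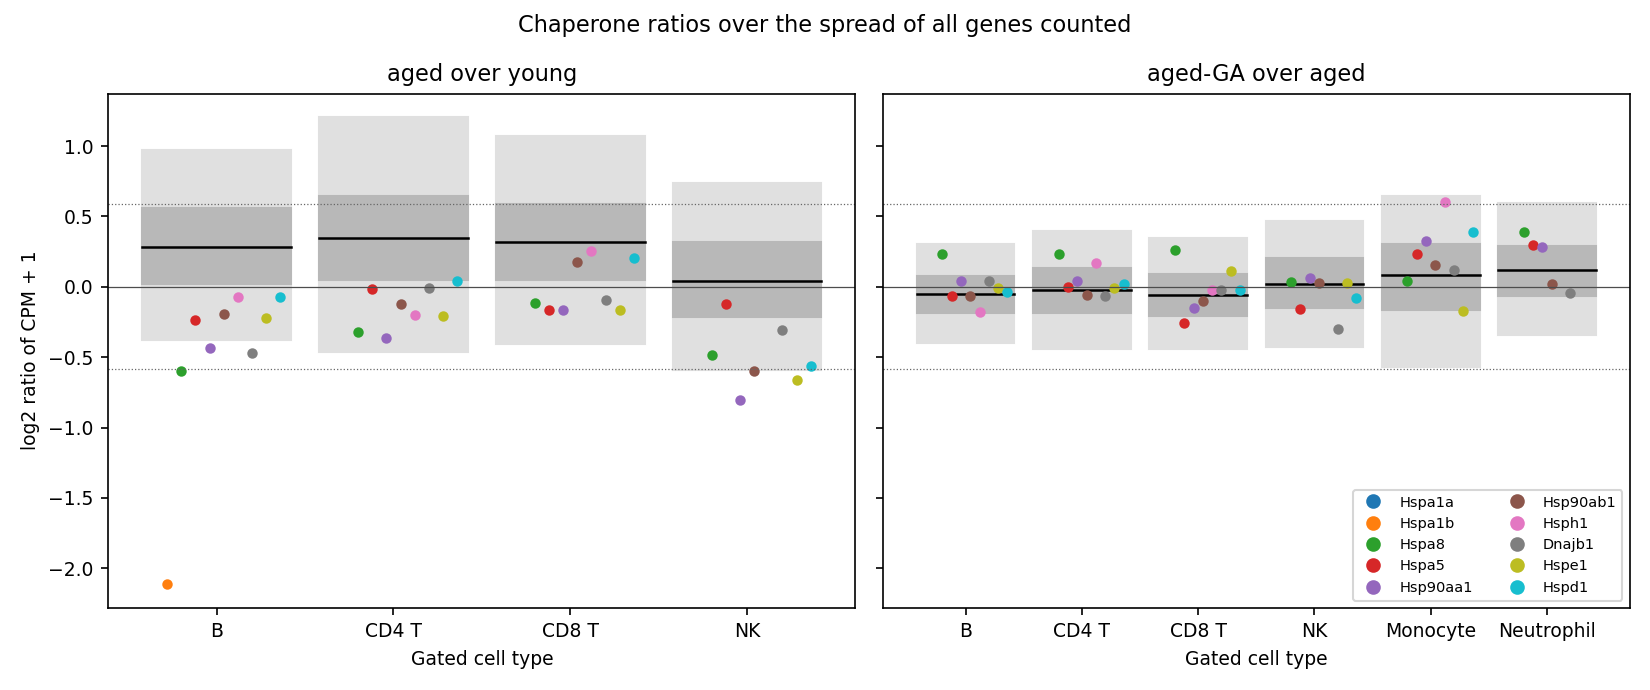
Log2 ratio of CPM + 1 (y axis) of each chaperone counted (points), aged over young on the left and aged-GA over aged on the right, by gated cell type. Dark and light bars span the middle and the 5th to 95th percentiles of all genes counted, black lines their median, and dotted lines 1.5-fold; Hspa1b in B cells lies at -2.12, and on the right Hspa8 is the highest point in B, CD4 T and CD8 T cells.

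Other stress genes gave context for the age comparison. In B cells 4 of 25 HSF1-related cytosolic genes counted were past 1.5-fold lower in the aged library and 0 higher, among them Hspa2, a further Hsp70 (10.1 against 42.9 CPM), Ubb, which encodes ubiquitin (1886 against 3104 CPM), and Hspa14, an Hsp70 of the ribosome (48.8 against 79.1 CPM). Of 16 immediate early genes, which handling of cells can raise, 10 were lower and 1 higher, with Dusp1 at 182 against 475 CPM and Junb at 803 against 1947 CPM, where 2.29% of all genes were lower. In CD4 T cells 0 of 15 immediate early genes were lower and 3 higher, in CD8 T cells 1 of 16 was lower and 2 higher, and in NK cells 3 of 14 were lower and 1 higher, where 3.28%, 2.7% and 5.09% of all genes were lower and 29.4%, 25.2% and 9.87% higher. In B cells ER genes were mixed: of 20, 3 were higher and 1, Dnajb9 (-1.19), was lower. Of 8 other mitochondrial chaperone genes there Lonp1 alone was past the fold, and higher. Of all genes in B cells 23.1% were higher and 2.29% lower. In NK cells 3 of 8 TRiC genes were lower, Cct5 (-1.03), Cct3 (-0.90) and Cct8 (-0.60), as were the Hsp90 co-chaperones Ptges3 (-0.89) and Fkbp4 (-0.66). In CD4 and CD8 T cells 0 of 8 TRiC genes were past the fold. Isolation of the cells and age cannot be told apart with 1 library each.

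The effect of glycyrrhizic acid was asked of the aged-GA over the aged library, which is the same aged library as in the age comparison. In B cells 0 of 8 members were past 1.5-fold, where 1.9% of all genes were, in CD4 T cells 0 of 8 (2.62%), in CD8 T cells 0 of 8 (3.01%), in NK cells 0 of 7 (3.81%) and in neutrophils 0 of 5 (6.16%). Among neutrophils, cells of 2500 to 7500 UMIs alone gave 3 of 5 past the fold, all higher, with a median of 0.63. The share past the fold and the median over all genes were not counted in those cells. Whether the members moved apart from genes at large there was therefore not tested. In monocytes 1 of 8 was (11.7%), Hsph1, at 24.5 against 15.8 CPM (0.60, interval 0.09 to 1.14), and it was not past the fold relative to the median over all genes. Monocytes of the 2 libraries also differed in makeup, with 425 and 68 classical and 377 and 144 nonclassical cells. Within classical monocytes Hsph1 was at 12.4 and 11.2 CPM, and within nonclassical monocytes at 26.7 and 36.1 CPM.

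Hspa8 had the highest ratio of the members counted in B cells (0.23, 0.20 to 0.27), CD4 T cells (0.23, 0.16 to 0.30) and CD8 T cells (0.26, 0.22 to 0.30) of the aged-GA over the aged library, and 91.6%, 85.7% and 91.2% of all genes counted lay below it. In NK cells it was 0.03 (-0.11 to 0.17), in monocytes 0.04 (-0.02 to 0.10) and in neutrophils 0.39 (0.23 to 0.56), at 418 against 319 CPM. The ratios of Hspa5 were -0.26 in CD8 T cells (260 against 311 CPM), -0.06 in B, 0.00 in CD4 T and 0.30 in neutrophils. Between the same libraries the median mitochondrial share of B cells was 3.57% in the aged and 4.84% in the aged-GA library, and the median haemoglobin share 0.769% and 0.515%. The part of either in these ratios was not tested.

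The remaining members counted, those with at least 100 UMIs over both libraries, lay within 0.30 of 0 on the log2 scale in B, CD4 T, CD8 T and NK cells. Hsp90aa1 had 0.04 in B and CD4 T cells and -0.15 in CD8 T cells, and Hspe1 -0.01, -0.01 and 0.11. Of 16 immediate early genes in B cells Socs3 (0.88) and Jun (0.67) were past the fold, where 1.9% of all genes were, and 0 of 8 TRiC genes were, whose median was 0.21. In neutrophils 4 of 17 immediate early genes were past it (6.16% of all genes), all higher in the aged-GA library: Nfkbia (0.95), Jun (0.88), Ier3 (0.87) and Ppp1r15a (0.67). In CD8 T cells 2 of 16 were past it (3.01%), both lower, Nr4a1 (-0.96) and Egr1 (-0.66), and in monocytes 3 of 17 (11.7%), with Jun higher (0.67) and Ier3 (-1.97) and Egr1 (-0.66) lower. In CD4 T and NK cells 0 of 15 and 0 of 13 were.

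Finally, it was asked whether chaperones were found in the same cells. This was computed for 6 pairs only: Hspe1 with Hspd1, Hsp90ab1 with each of Hspa8, Hsp90aa1 and Hspa5, and Hspa8 with Dnajb1 and Hsph1. With each cell thinned to 500 or 2000 UMIs, Pearson's r of these pairs in B, CD4 T and CD8 T cells lay between -0.09 and 0.14. At 2000 UMIs the pairs with Hsp90ab1 were above 0 in every cell type and library, and the other pairs lay on both sides of 0. Few UMIs per cell hold r near 0, so low values do not show that chaperones are found in different cells. The chaperonin pair Hspe1 and Hspd1 had 0.09 in young B cells thinned to 2000 UMIs, where 15.8% of cells with Hspe1 and 12.4% of those without it held Hspd1. In aged B cells the same shares were 14.4% and 14.2%.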

How the data were processed

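Matrices of UMI counts per gene and barcode were deposited by the authors, 1 per library of the 10x 3′ v3 kit. The deposited counts came from Cell Ranger (5.0.0 in the matrix headers, another version in the methods; build mm10 per the submitters' processing notes), and each group had 1 library. Cells were filtered as in the methods: at least 200 genes, at most 90% of the highest gene number and at most 7.5% mitochondrial UMIs. The gene limit and the gates were the only treatment of doublets. The number of cells left differs from that stated by the study.

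A cell was gated to a type with at least 3 of 8 markers of it and at most 0.5 times as many of any other (plasma cells with Jchain among them), and at most 10% haemoglobin UMIs. Plasma cells were taken whatever their number of B cell markers, so the gates did not leave out doublets of plasma and B cells. Erythroid cells had over 50%. CD8 T cells were gated T cells with a UMI of Cd8a or Cd8b1 and none of Cd4. CD4 T cells had Cd4 and neither Cd8a nor Cd8b1. UMIs were summed per type and library (types with at least 50 cells) and scaled to CPM. UMIs count transcript ends, so levels were not divided by length. Ratios used a pseudocount of 1 CPM and genes with at least 100 UMIs over both sides. With 1 library per group, no test was made, and 1.5-fold was the threshold of size. Shares of cells were thinned to 500 UMIs.

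The members and the lists of other genes were chosen with earlier results of these data known. Named genes are all members, up to 4 genes per list with the largest ratio past the fold, and the 5 genes most like Hspa1a, Hspa8 and Hspa5. A listed gene that the rule would name is not reported here. NK cells, the comparisons within a library, cells of matched mitochondrial share or depth, thinning to 2000 UMIs and CPM without immunoglobulin were added after seeing the data. Alternatives changed the filters, gates, scaling, pseudocount, fold and UMI minimum. Ratios were checked on simulated counts. Python 3.11.15, numpy 2.4.6, scipy 1.17.1, pandas 2.3.3 and matplotlib 3.10.9 were used.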

Additional observations from a re-analysis of the deposited data

How the results depend on the processing

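No paired analysis was possible because each group had 1 library, and no library could be left out. In B cells, aged over young, the count of members past the fold was 2, and 1 with a mitochondrial limit of 5%, with the class of most markers, at 2-fold and in cells of 2.5% to 5% mitochondrial UMIs. It was 0 in cells of 2500 to 7500 UMIs and 4 relative to the median over all genes. On the latter scale the medians over the members were -0.52 in B, -0.51 in CD4 T, -0.42 in CD8 T and -0.61 in NK cells. The share of all genes past the fold was not counted under the alternatives, so no count under them can be set against genes at large. In CD4 T cells the count was 1 without haemoglobin, mitochondrial and ribosomal protein genes and 2 relative to the median over all genes; in CD8 T cells 1 with the class of most markers and 2 at a minimum of 30 UMIs. Without haemoglobin, mitochondrial and ribosomal protein genes the medians were -0.39 in CD4 T and -0.30 in CD8 T cells. In NK cells the count was 0 at 2-fold, and the median -0.75 where the second class was held to 1 marker. At 2-fold 2 immediate early genes were past it in B cells.

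In monocytes, aged-GA over aged, the count of 1 went to 0 under 10 alternatives: either other mitochondrial limit, the second class held to 1 marker, the class of most markers, per-cell fractions, the median over all genes, a pseudocount of 10 CPM, 2-fold and both restricted sets of cells. Its median of 0.19 was -0.019 with the second class held to 1 marker and 0.027 in cells of 2500 to 7500 UMIs, where in neutrophils the count was 3 and the median 0.63.

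Of plasma over B cells, where 3 members were past the fold in either direction, 5 were past the fold in the aged-GA library without haemoglobin, mitochondrial and ribosomal protein genes and 1 in the aged library at 2-fold; of neutrophils over B cells, 4 in place of 7 in the aged-GA library at 2-fold. Relative to the median over all genes, directions of members past the fold turned for Hspe1 in aged plasma cells (0.074), Hspa8 in neutrophils (0.13 and 0.14) and Hsp90aa1 in aged-GA neutrophils (0.078), and those of further members under the fold turned as well, such as Hspd1 in aged plasma cells (0.28) and Hspa8 in plasma cells of both libraries (0.36). Hspa5 in plasma cells was at 2136 and 2016 CPM without immunoglobulin. Hspa8 was found in 60.5%, 43.8% and 49.1% of young, aged and aged-GA B cells thinned to 1000 UMIs, and in 91.0%, 81.5% and 89.3% without thinning. The cause of these changes was not tested. Plasma cells under 6 and neutrophils under 1 of the alternatives fell under 50 cells in at least 1 library and were not run. Hspa8 in B cells lay between -0.68 and -0.54 over 15 alternatives, past the fold in 13 of them. It was at -0.88 relative to the median over all genes, but not past the fold relative to genes of 300 to 2000 CPM. Hspa1b was past the fold in 12 of 12, but these are only the alternatives in which it reached the UMI minimum, mostly through its young UMIs. With 1 library per group, differences between mice cannot be told apart from age or treatment.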
